A study of Caenorhabditis elegans with 2 samples.

Results

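The microRNA (miRNA) genes of Caenorhabditis elegans were described for the presence of SNPC-1.1 on chromatin. All 261 genes that the Ensembl annotation of the worm types as miRNA were taken, of 46926 annotated genes in all, whatever their signal. Each gene was given the region of highest signal whose summit lay within 500 bp of its annotated 5′ end. The samples were 2 biological replicates of 1 group: whole young adult hermaphrodites of strain YL482, from 1 transgenic line that stably carries SNPC-1.1 (gene C06A8.2) with GFP and FLAG at its C terminus. Chromatin was sheared by sonication and immunoprecipitated with an antibody against GFP. No group without the tag was compared here, and the labels state neither the promoter nor the copy number of the transgene and give the age as unknown. A possible control experiment named there was not analysed here. Whole animals were used, so the signal is a sum over all tissues.

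miRNAs are short RNAs that guide Argonaute proteins to messenger RNAs, chiefly through the seed, bases 2 to 8 of the mature RNA. Most animal miRNA genes are transcribed by RNA polymerase II, alone, in clusters or inside an intron of a host gene, and the hairpin is then cut out by Drosha and Dicer. SNPC-1.1 is related to a subunit of SNAPc. This complex binds an element upstream of small nuclear RNA (snRNA) genes and serves both RNA polymerase II and RNA polymerase III there. In worms, SNAPc subunits are also known at piRNA genes and at the genes of the spliced leader RNAs. The annotated 5′ end of nearly every miRNA entry is that of the hairpin, not of the longer primary transcript, so a distance here is a distance to the hairpin.

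The authors' lists on build ce11 held 1500 reproducible regions, 30000 regions of the pooled replicates, 29523 regions in replicate 1 and 26195 in replicate 2. The reproducible regions were the 1500 highest of the pooled list, so a reproducible and a pooled region at a gene are the same measurement. By their deposited names, the pooled list and the replicate lists are inputs to the reproducibility analysis that hold peaks and background regions together, so a region in those lists alone is not by itself a called site. The signal of a region is the authors' own score on a scale that is not stated, so it was used only to rank regions within a list. The pooled scores began at 14.8 with a median of 20.5, and the reproducible scores at 58.8 with a median of 84.8. The lists hold no read totals, so depth is unknown. With 1 group there was no test between samples, and every result below is a description.

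As a class, miRNA genes lay near SNPC-1.1 regions about as often as any gene did. A reproducible summit lay within 500 bp of 12 of the 261 miRNA genes (4.60%, exact 95% binomial interval 2.40 to 7.89%), where 4.03% of all annotated genes had one. In replicate 1 a region lay near 101 members (38.7%), where 32.9% of all genes had one, and in replicate 2 near 87 (33.3%), where 30.5% did. A pooled summit lay near 95 (36.4%, interval 30.6 to 42.6%), where 34.4% of all genes had one. These intervals cover counting error only and treat neighbouring genes as independent. The share of members was near the background in these lists, so the counts say nothing particular about the class. Other classes of short noncoding genes stood far above it: a reproducible summit lay by 76 of 129 snRNA genes (58.9%), which here include the spliced leader genes, by 264 of 612 nuclear tRNA genes (43.1%) and by 96 of 346 snoRNA genes (27.7%).

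**Figure D1:**
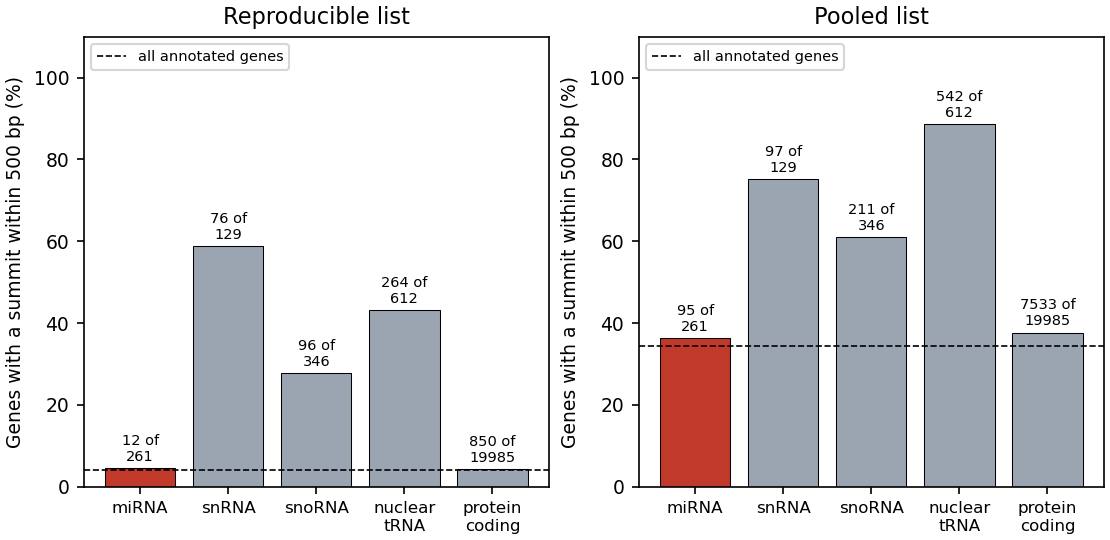
Bars give the share of genes in each class with a summit within 500 bp of the 5′ end, in the reproducible list (left) and the pooled list (right), and the dashed line gives the share of all annotated genes. The miRNA bars (4.60% and 36.4%) lie close to the lines at 4.03% and 34.4%, as do those of protein-coding genes.

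Within the class, the pair mir-8196a and mir-8196b stood apart from every other member. Both are miRNA genes of the X chromosome, more than 11 Mb apart. Their upstream sequences are shown first because these genes had the highest scores of the class. The 100 bases before each 5′ end are printed on the strand of the gene, from the RefSeq assembly WBcel235 (ce11 coordinates). The upstream sequences of sls-2.16 and sls-2.8, genes of the SL2 spliced leader RNA on chromosome III, are set beside them; their reproducible regions scored 2915 and 2421. Capitals mark CGGAACCC and GGTGTCG. The first is the 8-base word that the largest number of snRNA genes hold in this window on the gene strand. It was found without use of the regions. Both spliced leader genes are shown as holders of this word, which 31 of 129 snRNA genes (24.0%) hold. Its presence in them is therefore no finding about snRNA genes. The second word, GGTGTCG, is a 7-base word that both mir-8196 genes hold, picked after the sequences were seen. They share other 7-base words too, such as AGGTGTC, found upstream of 5 snRNA genes, and AAACACC, found upstream of 4. These are among the shared words that most snRNA genes hold, and AGGTGTC overlaps GGTGTCG. Other shared words, such as ACACCTA and TCGTTCT, were found upstream of no snRNA gene.
mir-8196a, chrX:2328894-2328993, plus strand: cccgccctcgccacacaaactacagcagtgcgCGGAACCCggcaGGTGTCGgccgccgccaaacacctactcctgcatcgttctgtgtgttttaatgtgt
mir-8196b, chrX:14324518-14324617, minus strand: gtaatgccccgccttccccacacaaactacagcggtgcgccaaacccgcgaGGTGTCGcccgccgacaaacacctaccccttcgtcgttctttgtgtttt
sls-2.16, chrIII:7141291-7141390, plus strand: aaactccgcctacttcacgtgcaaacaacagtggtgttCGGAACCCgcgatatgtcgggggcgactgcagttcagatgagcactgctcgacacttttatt
sls-2.8, chrIII:12250365-12250464, plus strand: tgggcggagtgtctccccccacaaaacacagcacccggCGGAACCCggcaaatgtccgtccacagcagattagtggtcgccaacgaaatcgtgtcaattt

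At mir-8196b (chromosome X, 14324355 to 14324517, minus strand, inside an intron of prx-1, a peroxisome assembly gene on the opposite strand) the score was 1064 in the pooled list, 469 in replicate 1 and 597 in replicate 2. The region ranked 46th of the pooled list, 46th in replicate 1 and 50th in replicate 2. At mir-8196a (chromosome X, 2328994 to 2329124, plus strand, between genes) the score was 773 in the pooled list, 341 in replicate 1 and 459 in replicate 2. It ranked 72nd in the pooled list, 68th in replicate 1 and 66th in replicate 2. No other member scored above 200 in the pooled list, and the next had 168, so these 2 lay clear of the rest in each list. The summits were 57 bp upstream of mir-8196b and 37 bp upstream of mir-8196a. In replicate 1 they were at the same places, and in replicate 2 at 47 and 36 bp upstream.

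No other annotated start lay near either summit. The nearest start of a tRNA, snRNA, snoRNA or protein-coding gene was 2835 bp away at mir-8196b (C11H1.7) and 6727 bp away at mir-8196a (T01B6.1). The noncoding gene T01B6.5 was 1903 bp from the second. The regions were also narrower, at 228 and 202 bp, than the 320 bp of each of the other regions described below. Such scores and summit places were seen at snRNA and snoRNA genes alike. Reproducible regions of snRNA genes had a median score of 436 and a median summit 42 bp upstream (quartiles 50.2 and 28.8 bp upstream). Those of snoRNA genes had a median score of 150, a highest score of 2984 and a median summit 43.0 bp upstream (quartiles 58.8 and 24.8 bp upstream). The mir-8196b summit lay outside the snRNA quartiles and within the snoRNA ones. Every 36-base word within 150 bp of the 5′ ends of both genes occurs once in the genome.

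The word CGGAACCC stood upstream of 31 of 129 snRNA genes (24.0%), with its first base at a median of 61 bases before the gene. It stood upstream of 20 of 346 snoRNA genes (5.78%), 5 of 19985 protein-coding genes (0.0250%), none of 612 nuclear tRNA genes and 2 of 261 miRNA genes (0.766%). The 2 were mir-8196a, with its first base 68 bases before the gene, and mir-2219. mir-8196b did not hold it. The word GGTGTCG began 56 bases before mir-8196a and 49 bases before mir-8196b. It was also found before mir-798, a gene with no pooled region, and before 4 snRNA genes (3.10%), 8 snoRNA genes (2.31%), 1 nuclear tRNA gene (0.163%) and 25 protein-coding genes (0.125%). Over 301 bases around the summit and on both strands, CGGAACCC was in 13.4% of nuclear reproducible regions and 1.73% of nuclear pooled regions, and in 2 of the 11 reproducible regions at miRNA genes. A match describes the letters of the window only.

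The pair was also compared by global alignment. The 100 bases upstream were identical in 80 of 107 columns (74.8%) and the first 131 bases of the genes in 107 of 134 columns (79.9%). The bases from 300 to 201 before the genes were identical in 61 of 110 columns (55.5%). No unrelated sequences were aligned, so these shares have no baseline. Both annotated mature RNAs of each gene are given below, with the seed in capitals. They show that the annotated ends differ by a base between the 2 genes, so that the seeds as annotated are not the same.
mir-8196a, first arm: cCCCAUAGaaauauuuucuauguc
mir-8196b, first arm: cCCAUAGAaauauuuucuauguc
mir-8196a, second arm: gUAGUUAAuuuuucuuugggaau
mir-8196b, second arm: uGUAGUUAauuuuuucuuugggaa
None of these seeds was held by another annotated miRNA.

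**Figure D2:**
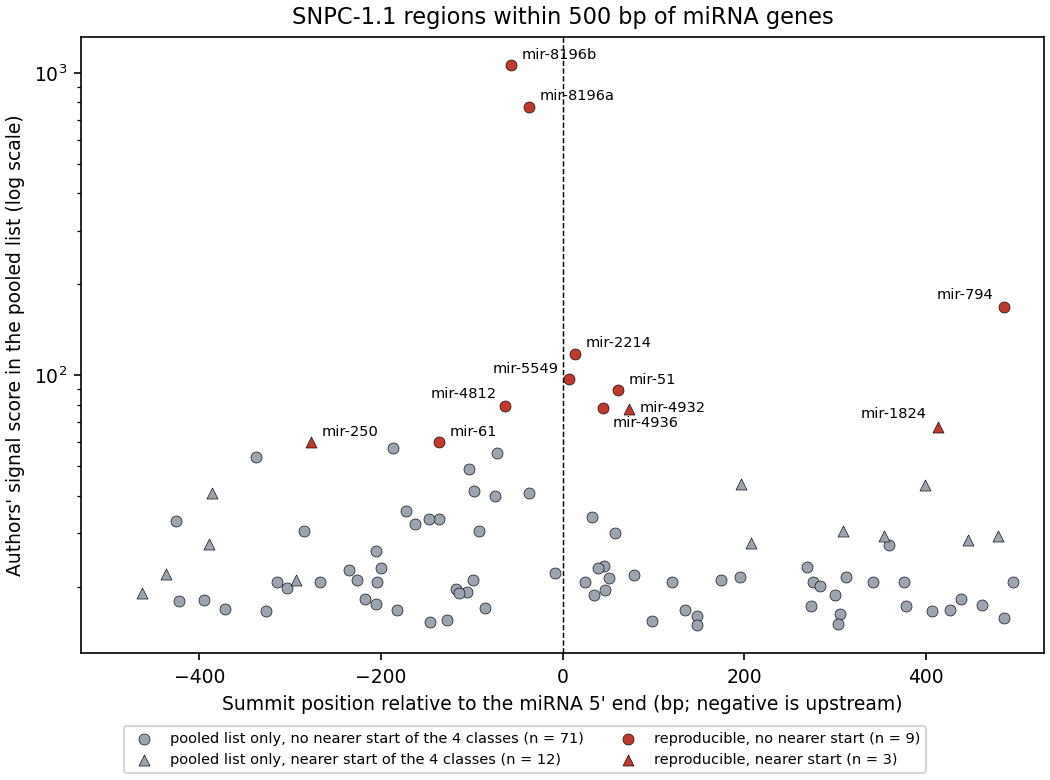
Each point is a miRNA gene with a pooled region (n = 95), placed by the position of its summit relative to the 5′ end (bp) and the authors' score on a log scale. Red points also have a reproducible region, and triangles mark summits that lie nearer to a tRNA, snRNA, snoRNA or protein-coding start. The mir-8196 genes sit at 1064 and 773, just upstream of the 5′ end, above all other points.

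The other 10 genes with a reproducible region had scores from 60.3 to 168 and ranks from 251 to 1444 in the pooled list. The highest was mir-794 on chromosome I (12595690 to 12595773), a relative of let-7. Its score was 168 in the pooled list, 58.9 in replicate 1 and 128 in replicate 2. The summit was 486 bp downstream of the 5′ end, beyond the hairpin, so it was the reproducible summit closest to the limit of 500 bp. In replicate 1 the summit was 341 bp downstream and in replicate 2 it was 458 bp downstream. The nearest start of the 4 classes was 3825 bp away (F33E2.5), and the region held CGGAACCC on the minus strand, opposite to mir-794, 71 bp from the summit. The neighbouring let-7 relative mir-795, whose 5′ end lies 1121 bp from that of mir-794, had a weak pooled region of its own, with a score of 17.0.

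Next came mir-2214 (chromosome III, 7278715 to 7278778), in an intron of the protein-coding gene B0361.11 on the same strand. Its score was 118 in the pooled list, 50.6 in replicate 1 and 72.3 in replicate 2. The summit was 14 bp inside the gene, and TATAAA began 29 bases before it. That element stood in the 100 bases upstream of 20 miRNA genes (7.66%), against 12.6% of protein-coding and 9.30% of snRNA genes. The noncoding gene B0361.13 started 198 bp from the summit.

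mir-5549 (chromosome III, 6971976 to 6972085), between genes, had a score of 97.4 in the pooled list, 25.3 in replicate 1 and 64.1 in replicate 2. Its summit was 7 bp inside the gene and 175 bp from the start of rfc-4, which encodes a subunit of the clamp loader of DNA replication. In replicate 1 it ranked 1401st and in replicate 2 it ranked 545th.

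mir-51 (chromosome IV, 11026013 to 11026112) belongs to a family of 6 genes with the seed ACCCGUA, related to the miR-99/100 family of other animals. Its score was 89.2 in the pooled list, 19.7 in replicate 1 and 65.0 in replicate 2. The summit was 61 bp inside the gene, with the noncoding gene F36H1.17 starting 168 bp away. Of its family, mir-52 was just outside the reproducible list, with a pooled score of 57.6 and 23.3 in each replicate. The mir-52 summit was 187 bp upstream and only 45 bp from the noncoding gene Y37A1B.333. mir-53 had a pooled region of score 16.0, and mir-54, mir-55 and mir-56, a cluster on the X chromosome, had none. In replicate 1 alone these last 3 lay near regions of score 7.34, 7.34 and 11.3. The family thus shared its seed but not a region of like strength.

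mir-4812 (chromosome X, 15242774 to 15242849) lies in an intron of piki-1, a phosphoinositide kinase gene, on the same strand. Its score was 79.0 in the pooled list, 37.7 in replicate 1 and 41.9 in replicate 2, with the summit 63 bp upstream. It ranked 678th in replicate 1 and 1255th in replicate 2. Of the 36-base words around its 5′ end, 92.5% occur once in the genome, where all did at the other 11 genes.

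mir-4936 (chromosome III, 3249151 to 3249260), between genes, had a score of 78.0 in the pooled list and 58.8 in replicate 2. In replicate 1 the region that overlaps it scored 15.6, and the highest region within 500 bp, at 16.7, lay 361 bp upstream, so the replicates were least alike here: the overlapping region ranked 4288th in replicate 1 and 647th in replicate 2. The pooled summit was 44 bp inside the gene and 620 bp from the start of nduf-9, a mitochondrial complex I gene.

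At 3 of the 12 genes a protein-coding start was nearer to the summit than the miRNA was. The summit 73 bp downstream of the 5′ end of mir-4932 (chromosome I, 9512307 to 9512416) was 72 bp from the start of the kinesin gene klp-16, on the same strand. Its score was 77.1 in the pooled list, 32.0 in replicate 1 and 51.4 in replicate 2. The summit 413 bp downstream of mir-1824 (chromosome I, 13513955 to 13514047) was 78 bp from the start of Y87G2A.18, whose intron holds the miRNA on the opposite strand. The scores were 67.6, 20.8 and 43.0 in the same order. The third, mir-250 (chromosome V, 11769917 to 11770015), shared a region with mir-61 (11770060 to 11770156), which lies 141 bp away in the same cluster. That region scored 60.3 in the pooled list, 19.6 in replicate 1 and 46.4 in replicate 2. Its summit was 136 bp upstream of mir-61, 277 bp upstream of mir-250 and 175 bp from the start of the protein-coding gene F55A11.4. The 12 genes therefore rested on 11 regions, of which 9 genes (3.45% of members) had no nearer start of the 4 classes, where 2.67% of all genes had such a reproducible region. The same 9 were left when starts of every other type of gene were considered, since the nearer starts were again those of the protein-coding genes.

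Outside the window, mir-354 and mir-4921 had reproducible summits 874 and 914 bp away, with scores of 184 and 117. Both lay nearer to another start, 135 bp from the protein-coding gene ekl-4 and 5 bp from a tRNA gene, and no other member gained one when the window was widened to 1000 bp.

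At some of these regions the letters of the internal promoter of tRNA genes were found. That promoter has an A box and a B box, which in tRNA genes are bound by the factor TFIIIC. On both strands of 301 bases around the summit, the A box was searched as TGGC, any 2 bases and AGTGG, and the B box as GGTTCGA, any 2 bases and CC. Both forms were chosen after the sequences were seen. No A box match overlapped a B box match at a member, though at mir-51 the B box shares bases with GGTGTCG on the opposite strand. The B box was in 64.4% and the A box in 9.31% of the bodies of 612 nuclear tRNA genes. At the 11 reproducible regions of miRNA genes, 4 held a box, and none of those boxes lay in an annotated tRNA gene. An A or B box was in 14.1% of all nuclear reproducible regions, and in 3.39% of the 1239 with no annotated tRNA in the window. With 11 regions, and motifs picked for what these hold, this share was given no test.

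The B boxes were at mir-51, 108 bp from the summit on the strand of the gene, and at mir-4936, 78 bp from the summit. The A boxes were at mir-4812, 24 bp from the summit on the strand of the gene, and at the region of mir-61 and mir-250, 67 bp from the summit. Upstream sequences are printed for the pair with a box before the gene on its own strand, with the box in capitals.
mir-51, chrIV:11026113-11026212, minus strand: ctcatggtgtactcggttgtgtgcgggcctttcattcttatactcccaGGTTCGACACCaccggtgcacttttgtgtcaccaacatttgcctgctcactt
mir-4812, chrX:15242850-15242969, minus strand: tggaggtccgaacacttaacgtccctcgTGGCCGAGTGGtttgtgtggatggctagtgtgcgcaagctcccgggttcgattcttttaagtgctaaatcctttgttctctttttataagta
The nearest annotated tRNA start was 1485 bp from the mir-4812 summit, and no tRNA start was the nearest neighbour of the mir-51 summit.

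The relatives of mir-4812 were looked at for this reason, and this was decided with their values known. mir-1829b and mir-1829c share with mir-4812 the seed AACCACU of the second arm, and these 3 genes are the only annotated holders of it.
mir-4812, second arm: cAACCACUgcaauuucucuau
mir-1829b, second arm: cAACCACUggaauuucucuauu
mir-1829c, second arm: cAACCACUggaauuucucuauu
All 3 had a pooled region. mir-1829b (chromosome X, 14977119 to 14977178, in an intron of F20D1.3) had a score of 49.0 in the pooled list, 15.9 in replicate 1 and 35.3 in replicate 2, with the summit 103 bp upstream and an A box 16 bp from it. mir-1829c (chromosome X, 15236362 to 15236423) lies in piki-1, as mir-4812 does. Its pooled score was 43.8, but the summit was 196 bp inside, past the gene, 103 bp from an annotated tRNA start and 15 bp from the noncoding gene F39B1.5. mir-1829a, which does not share the seed, had a pooled region 105 bp upstream with a score of 19.2.

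**Figure D3:**
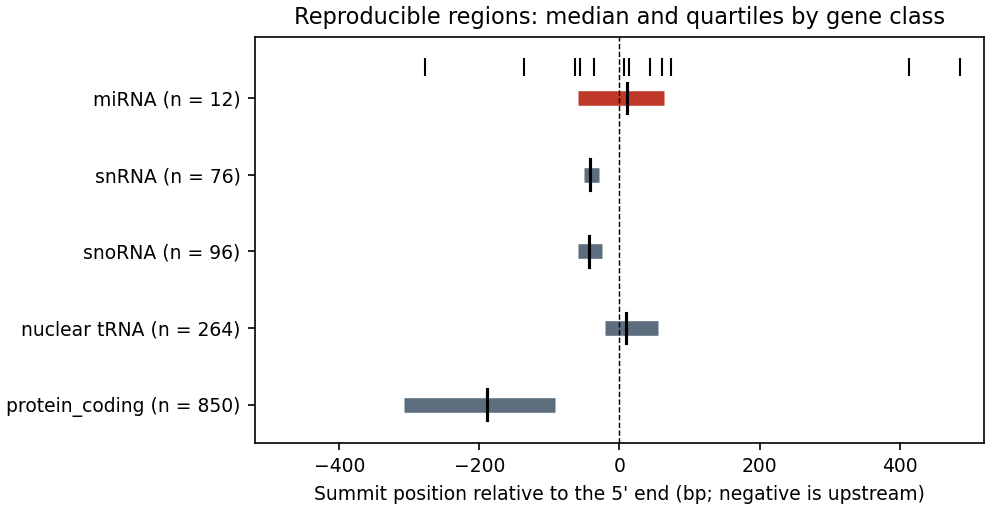
Boxes span the quartiles of the summit position relative to the 5′ end (bp) for genes with a reproducible region, the thick black line is the median, and ticks give the 12 miRNA genes. snRNA and snoRNA summits gather about 42 bp upstream, tRNA summits lie about the 5′ end, and the miRNA summits spread from 277 bp upstream to 486 bp downstream.

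Over the class, the summits had no fixed place. Positions were counted by gene, so a summit shared by genes counts once for each of them. Of the 12 genes with a reproducible region, 5 had the summit upstream of the 5′ end and 8 had it within 100 bp. The median was 10.5 bp inside the gene (quartiles 58.5 bp upstream and 64.0 bp inside). Of the 95 genes with a pooled region, 47 had the summit upstream, 26 within 100 bp and 14 at 400 to 500 bp. At snRNA genes 86.8% of reproducible summits were upstream, at snoRNA genes 88.5%, at protein-coding genes 87.1% and at tRNA genes 45.5%. Between 20 and 80 bp upstream, the stretch where snRNA summits gather, lay the reproducible summits of 3 miRNA genes, mir-8196a, mir-8196b and mir-4812, against 62 of 76 snRNA genes. Of the reproducible summits of other classes, 64.6% at snoRNA, 16.7% at nuclear tRNA and 9.88% at protein-coding genes lay in that stretch. In the pooled list the number for miRNA genes was 6 of 95 (6.32%). The pooled shares were 71.1% at snRNA, 36.5% at snoRNA, 15.9% at nuclear tRNA and 8.39% at protein-coding genes. The pooled miRNA share was thus the lowest of these classes.

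The replicates did not rank all reproducible members alike. All 12 reproducible members were among the 1500 highest regions of replicate 2 and 7 of them among the 1500 highest of replicate 1, where mir-51, mir-4936, mir-1824, mir-61 and mir-250 ranked lower. The 1500th region scored 24.5 in replicate 1 and 38.2 in replicate 2. Of the 261 genes, 60 had a region in both replicates, 41 in replicate 1 only, 27 in replicate 2 only and 133 in neither. This split was not computed over all genes, so it says nothing particular about miRNA genes. Of all genes, 32.9% had a region in replicate 1 and 30.5% in replicate 2. Across the 60 genes, Spearman's correlation of the scores was 0.477, given as a description, since the genes come from the same 2 libraries and some share a region. The highest region within 500 bp was taken in each replicate separately, so at some genes the scores compared are of different regions. At mir-45 the summit was 284 bp upstream in replicate 1 and 484 bp downstream in replicate 2.

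**Figure D4:**
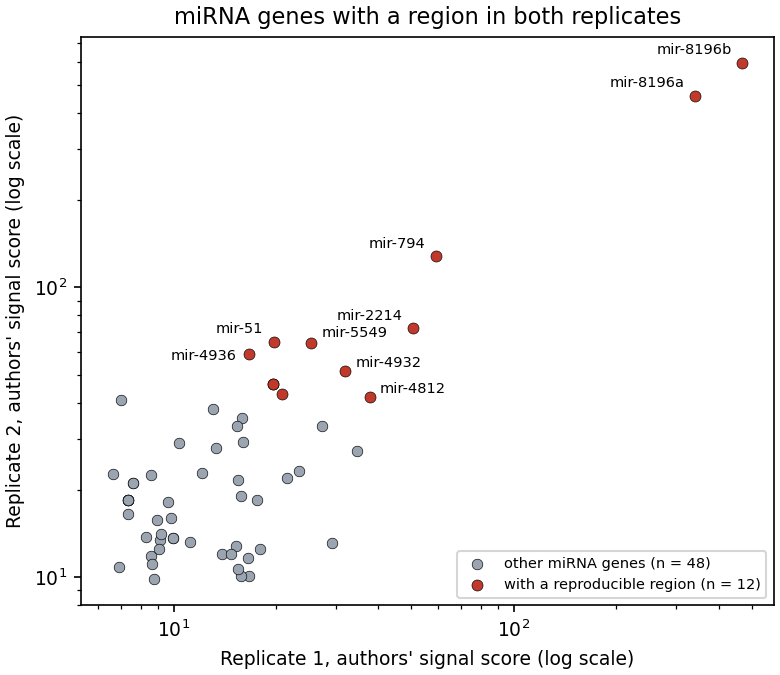
Each point is a miRNA gene with a region within 500 bp in both replicates (n = 60), by its score in replicate 1 and replicate 2 on log scales. The mir-8196 genes and mir-794 are high in both, while mir-51 and mir-4936 are high in replicate 2 and at 19.7 and 16.7 in replicate 1.

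The 83 genes with a region in the pooled list only had scores from 14.9 to 57.6, with a median of 21.0, close to the 20.5 of the whole pooled list. Below mir-52, which missed the reproducible list at a score of 57.6 and rank 1554, came mir-4934 (55.2, summit 72 bp upstream), in the gap before mtr-4, an RNA helicase gene, whose start was 201 bp away. mir-229 (53.8, 338 bp upstream), in an intron of gcn-1, leads the cluster of mir-64, mir-65 and mir-66, which had no pooled region. The remaining ones by score were mir-1829b and mir-1829c (above), mir-353 (43.4), mir-2219 (41.5), mir-4813 (40.8), mir-8201 (40.7), mir-77 (39.8), mir-784 (35.6), mir-238 (34.1), mir-90 (33.5), mir-83 (33.4) and mir-255 (33.0).

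Of these, mir-2219 (chromosome V, 2924580 to 2924655, between genes) held the same 8-base word as mir-8196a, at a far lower score. CGGAACCC occurred at 2 places on the strand of the gene, 10 and 11 bp either side of a summit 98 bp upstream, and no start of the 4 classes lay within 2059 bp. Its score was 10.4 in replicate 1 and 29.1 in replicate 2. The mir-353 summit fell at the first base of the protein-coding gene D1007.10, and the mir-8201 summit lay 47 bp from the start of its host hil-2, a linker histone gene. The mir-77 summit was 74 bp upstream of the miRNA and 108 bp from the snoRNA gene T21B4.20. At mir-83 the noncoding gene C06A6.9 was 20 bp from the summit, nearer than the miRNA. In the pooled list as a whole, 80 members (30.7%) had no nearer start of the 4 classes, where 30.0% of all genes had such a region. At the other 15 the nearer start belonged to a protein-coding gene in 12 cases and to a tRNA gene in 3. When starts of every other type of gene were considered, 67 members were left, a count not computed over all genes.

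Of the 58 miRNA genes on the lists of known families and functions, 4 had a reproducible region (6.90%) and 26 a pooled one (44.8%), where 4.03% and 34.4% of all genes did. The lists were chosen with earlier results known, and clustered genes among them share regions. lin-4, which times larval development, had no pooled region, and in replicate 2 a region of score 11.3 lay at the limit of 500 bp. let-7, whose annotated entry spans 1732 bp, had none in any list. lsy-6, which sets the asymmetry of a pair of taste neurons, the muscle miRNA mir-1 and the neuronal miRNA mir-124 also had none in any list. Of the 5 annotated genes with the let-7 seed GAGGUAG, mir-48 and mir-795 had pooled regions, with scores of 21.3 and 17.0, and let-7, mir-84 and mir-241 did not. mir-71, which affects lifespan, had a pooled score of 26.3 with the summit 206 bp upstream, nearer to the noncoding gene F16A11.8 (128 bp). mir-34, which acts in the stress response, and mir-237 had a region in replicate 1 alone, with scores of 20.9 and 9.59.

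The mir-35 family, needed for embryogenesis, showed how members of a cluster share a region. Of its 8 genes, which share the seed CACCGGG, 7 had a pooled region. For mir-36 to mir-40 it was 1 region, with a score of 20.8 in the pooled list and 18.5 in replicate 2. In replicate 1 the highest region within reach of those 5 genes scored 7.33 and did not overlap the pooled one. The noncoding gene Y62F5A.15 started 181 bp from that pooled summit. mir-35 took a region of score 20.7, mir-41 took another of score 28.5 that lay nearer to the start of Y62F5A.9, the gene whose opposite strand holds the cluster, and mir-42, which lies apart from the cluster, had none. Over all members, 13 genes shared 5 pooled regions, so the 95 genes rested on 87 regions. In the mir-58 family, the worm relatives of bantam, 6 genes hold the seed GAGAUCA. The pooled region of mir-58b and mir-58c scored 30.5, those of mir-2209a and mir-80 scored 21.6 and 21.0, and mir-81 and mir-82 had none. mir-58a, with another seed, had a pooled score of 17.3. Across all members, no seed was held by more than 1 of the 12 genes with a reproducible region, whose 22 annotated mature RNAs had 22 different seeds.

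By chromosome, reproducible regions were at 3 of 33 miRNA genes on I, 0 of 49 on II, 3 of 27 on III, 1 of 50 on IV, 2 of 28 on V and 3 of 74 on X. The shares of all annotated genes were 6.42% on I, 5.56% on II and 7.07% on III. They were 2.35% on IV, 3.67% on V and 4.47% on X. In the pooled list the X chromosome had the lowest share, 14 of 74 (18.9%), where 25.8% of all genes on X had a pooled region, also the lowest of the 6 chromosomes. Chromosome I had the highest share of members, 16 of 33 (48.5%), where 45.2% of all its genes had one. On IV the shares were 48.0% of members and 33.4% of all genes. Of 155 genes in no protein-coding host, 8 had a reproducible region (5.16%), as did 2 of 74 with a host on the same strand (2.70%) and 2 of 32 with a host on the opposite strand (6.25%). Of the 42 genes with a tRNA, snRNA, snoRNA or protein-coding start within 500 bp, 5 had a reproducible region (11.9%) and 22 a pooled one (52.4%), and of the 219 without, 7 (3.20%) and 73 (33.3%). The splits by host and by neighbouring start were not computed over all genes, so they cannot be read as particular to miRNA genes. Names numbered 1000 or above, which were given later, covered 8 of the 12 reproducible genes and 123 of all 261. In counts this small these splits are a description only.

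Genes for the proteins that make and use miRNAs were listed for comparison. Of 23 annotated genes on the list, 3 had a reproducible region, where 4.25% of protein-coding genes had one, and 15 had a pooled one, where 37.7% did. This list too was chosen with earlier results known, so these counts are a description only. xrn-2, an exoribonuclease that also degrades mature miRNAs in worms, had a score of 132 in the pooled list, 63.2 in replicate 1 and 67.2 in replicate 2, with the summit 33 bp upstream. vig-1, a component of the Argonaute complex, had 85.4, 35.7 and 52.6 in the same order, with the summit 438 bp upstream. pash-1, the partner of Drosha, had 65.9, 15.5 and 49.5, with the summit 141 bp upstream. Drosha itself (drsh-1) had a pooled score of 25.3 and Dicer (dcr-1) 39.3. Of the miRNA Argonautes, alg-2 had 22.3 and alg-1 no pooled region.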

How the data were processed

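ChIP-seq of SNPC-1.1 was described from 4 peak lists on build ce11. Per the deposited text files, the replicate lists and the pooled list were called with a control alignment as input to an irreproducible discovery rate (IDR) analysis, and the reproducible list passed its threshold. For the aligner, caller and threshold, nothing is given in the sources used here. The signal value is a score deposited by the authors for each region, on a scale not stated. The lists on ce10 were not used. The column of p-values held no values and was not used.

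Genes were taken from Ensembl release 115 (WBcel235, the coordinates of ce11) and sequences from the RefSeq assembly of that build. All 458 annotated mature RNAs, of 260 of the 261 genes, had the same coordinates in RefSeq. Coordinates are 1-based. Each summit was placed by adding the deposited offset to the region start. For each gene the highest region with a summit within 500 bp of the 5′ end was kept, and the search was checked on simulated summits against a search of every pair. Where a nearer start of a tRNA, snRNA, snoRNA or protein-coding gene existed, it was recorded. The members and lists were chosen with earlier results of these data known. Genes were named by rule: all with a reproducible region, the next 15 by pooled score, the listed miRNAs of known function, and the listed pathway genes with a reproducible region. The other genes named (mir-795, mir-798, mir-1829a, mir-58b, mir-58c, mir-2209a and further pathway genes) were chosen after their values were seen, as were the A box, the B box and GGTGTCG. Python 3.11.15, pandas 2.3.3, scipy 1.17.1 and Biopython 1.88 were used. Per the labels, the 2 biological replicates were separate biosamples of 1 line.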

Additional observations from a re-analysis of the deposited data

How the results depend on the processing

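Of 45 recalculations under other settings, 28 stayed within 1.5 times the reported count or, for the median position, within the spread of the replicates (7.78 bp). With 1 replicate left out, the list of the other was used, cut to its 1500 highest regions for the reproducible results. The reproducible count of 12 was then 11 in replicate 1, where 3.73% of all genes had a region. In replicate 2 it was 13, where 3.99% did. The genes were not all the same: the 11 held 7 of the 12 genes, and the 13 held all 12. The reproducible count was 6 in the highest part of the list by score (750 regions), where 2.16% of all genes had a region. The share of all genes was 2.53% with a window of 200 bp, where 9 members had a region (3.45%). The pooled count of 95 was 52 with a window of 200 bp, 147 with 1000 bp, 63 among the 15000 highest regions, 21 among the 3000 highest and 47 when a region had to overlap the gene. The shares of all genes moved alike, to 17.4%, 50.9%, 20.7% and 6.99% for the first 4 of these. The pooled count with no nearer start was 80, and 50, 49 and 15 with 200 bp, the 15000 and the 3000 highest. The median pooled position, 7 bp inside the gene, changed sign: it was -37.0 bp with a window of 200 bp, -8.00 bp with 1000 bp, -8.00 bp among the 15000 highest, -37.0 bp among the 3000 highest, and between -44.0 and -33.0 bp with 1 replicate left out. A wider window or fewer regions changes these counts by construction; for the median position the cause was not tested. No paired analysis was possible because there is only 1 group. Depth is unknown, so the absence of a region is no measure of absence of the protein.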
